A study of Mus musculus with 4 samples.

Results

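Primary keratinocytes that carried a tamoxifen-activated recombinase were compared with and without the inducer. The comparison is CKO 4OHT against CKO EtOH, which is 2 of the 4 arrays of the study, with 1 array a side. All 4 cultures were primary keratinocytes, the main cell of the epidermis, from the tail skin of C57BL/6 mice with a floxed Prdm1 gene, in which Cre recombinase can cut out the part that lies between its recognition sites. They grew in the serum-free medium CnT-07 on rat collagen I. CKO cells also carried CreER, a Cre recombinase that becomes active when 4-hydroxytamoxifen (4OHT) binds its estrogen receptor part; control cells had the same floxed gene and no CreER. Either 4OHT or its solvent ethanol (EtOH) was in the medium from day 1 to day 3, and the cells were collected on day 5. CKO and control cells came from different mice, and the promoter that drives CreER, the number of mice and the floxed part of Prdm1 are not stated in the labels. Within the CKO pair, the drug itself and the recombinase it activates cannot be told apart. The control pair (control 4OHT against control EtOH) had the same drug without CreER and shares no array with the CKO pair, so it serves as the yardstick throughout.

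Prdm1 encodes Blimp-1, a zinc finger repressor that drives B cells into plasma cells. It is also made in the granular layer of the epidermis, where keratinocytes build the cornified envelope. Keratinocytes are also sentinels: when stressed or wounded they release chemokines that draw in neutrophils, and ligands of the EGF receptor that act back on the same cells through the ERK kinases and the AP-1 transcription factors.

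Levels are linear RMA intensities, and differences are log2(4OHT) minus log2(EtOH), so that 1 is 2-fold. Where 4 levels follow each other, they stand for the control arrays (EtOH, then 4OHT) and then the CKO arrays (EtOH, then 4OHT). A gene was measured when its highest level was at least 20.04, the median over all probe sets and arrays, which held for 7461 of 12393 named genes. "Higher" and "lower" in a count mean at least 2-fold between the 2 arrays of a pair. One array per group leaves no estimate of error, so nothing was tested, and counts and folds describe these arrays. The 4 arrays limit the precision of every value. Levels under about 10 lie near the floor of the arrays, and folds that rest on them are imprecise.

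The cultures carried keratinocyte transcripts whose summed level was even. The intensities of 11 keratinocyte markers, 10 of them measured, added up to between 17344 and 18228 on the 4 arrays, and Krt14, the basal keratin, was at 6587, 6663, 6624 and 6437. Bright keratins weigh most in that sum, and some single markers were less even, such as Itgb4 at 391, 315, 316 and 551. None of 6 neutrophil, 6 endothelial, 4 Merkel cell and 5 muscle or adipocyte markers was measured on any array. Dcn was the 1 measured gene of 10 fibroblast markers (sums of 88.7 to 95.1, with the collagen genes under the filter). The 7 melanocyte markers, 5 of them measured, added up to 137 to 167 with the highest sum in CKO 4OHT, and 11 leukocyte markers (2 measured) to 118 to 125. The 6 hair follicle and sebocyte markers, of which Scd1 was measured, added up to 330.4 to 481 with the lowest sum in CKO 4OHT. The part of such cells in the results was not tested. Esr1, the estrogen receptor gene, was at 11.3, 18.2, 54.3 and 44.4, highest on both CKO arrays.

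The targeted gene was lowest on the array labelled with recombinase and inducer. Prdm1 was at 20.7, 52.4, 17.0 and 6.43, a CKO difference of -1.401 (2.64-fold) and a control difference of 1.34. The pairs thus went opposite ways. The CKO EtOH level was itself below the table median, so how much transcript was left cannot be read from 1 dim probe set. Of 13 measured genes of the Prdm family and partners of Blimp-1, Prdm1 was the 1 gene past 2-fold in the CKO pair; Bcl6, which Blimp-1 is known to repress in B cells, differed by -0.51. In bulk RNA, fewer cells with a transcript and less of it per cell cannot be told apart, here and below.

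In the CKO pair 133 genes were higher (1.78% of the 7461 measured) and 139 lower (1.86%). In the control pair the counts were 95 higher (1.27%) and 18 lower (0.241%). The CKO pair also reached further. It had 42 genes higher and 30 lower by at least 3-fold, 17 and 15 by at least 4-fold, and 8 and 3 by at least 8-fold, against 15 and 0, 3 and 0, and 0 and 0 in the control pair. Most genes differed little in either pair: 88.9% were within 1.5-fold in the CKO pair and 92.1% in the control pair, and the SD of the log2 differences over genes was 0.44 and 0.34. The median over all measured genes was 0.01 in the CKO pair and -0.04 in the control pair. Counts of list members above 0 and list medians, given below, are to be read beside these 2 values. Across the 7461 genes the differences of the 2 pairs were almost unrelated (Pearson r = 0.03, Spearman correlation 0.04, a description over genes, which are not replicates).

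**Figure D1:**
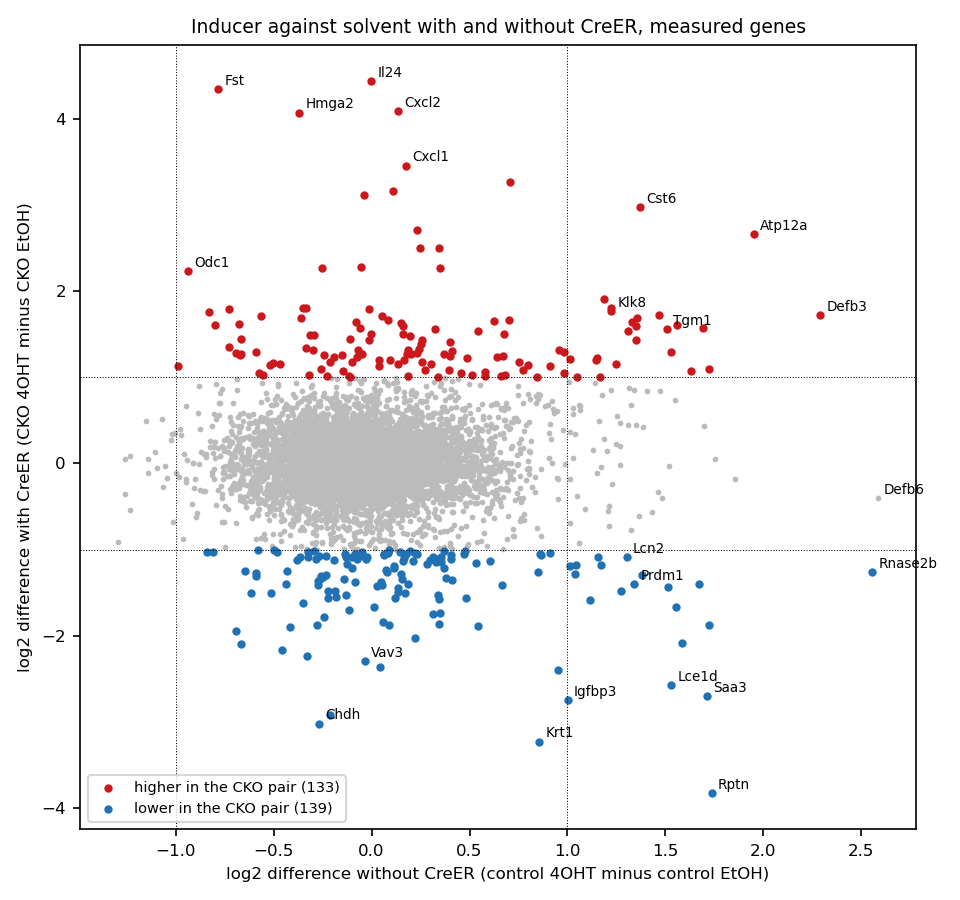
Log2 difference of 4OHT against EtOH for each of the 7461 measured genes in the CKO pair (y axis) and in the control pair (x axis), with dotted lines at 2-fold; red points are the 133 higher and blue points the 139 lower genes of the CKO pair. Most coloured points lie between the vertical lines, whereas a smaller set on the right was higher in the control pair and either higher (Cst6, Atp12a, Defb3) or lower (Rptn, Saa3, Lce1d) in the CKO pair.

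The genes of the CKO pair can be sorted by their difference in the control pair. Of the 133 higher genes, 80 were within 1.5-fold in the control pair, 24 were higher there too and 0 were lower. Of the 139 lower genes, 103 were within 1.5-fold in the control pair, 20 were higher there and 0 were lower. Read from the other side, 24 of the 95 genes higher in the control pair (25.3%) were also higher in the CKO pair and 20 (21.1%) were lower, while all 18 genes lower in the control pair stayed under 2-fold in the CKO pair.

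Secreted signals led the higher genes. Il24, an IL-10 family cytokine of activated epithelium, was at 53.9, 53.8, 42.3 and 920.4, a 21.7-fold difference. Fst, the activin antagonist follistatin, was at 51.0, 29.6, 27.9 and 569 (20.4-fold). For both genes CKO 4OHT stood far above the other 3 arrays. Neutrophil-attracting chemokines of the CXC family were close behind. Cxcl2 was at 9.06, 9.94, 12.9 and 220.3 (17.1-fold). Cxcl1 was at 36.2, 40.8, 53.7 and 591 (11.01-fold). Cxcl5 was at 9.87, 16.1, 12.5 and 121 (9.64-fold). Cxcl2 and Cxcl5 were dim on the other arrays and passed the level filter through CKO 4OHT alone, so their folds are less certain than that of Cxcl1. The same holds for 20 of the 133 higher genes, among them Il1a, Ereg, Dusp6, Fosl1, Ccn2, Mmp3, Krt18 and Ifi209 below, and counts and medians of lists that hold such genes lean upward for that reason. The other 5 genes of that list on the array, Cxcl15, Ppbp, Pf4, Csf2 and Csf3, reached no more than 7.79 on any array. Of 7 other measured chemokines none was higher, and Cxcl14, a chemokine made by resting epidermis, was lower at 187, 194, 245 and 92.4 (-1.41).

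**Figure D2:**
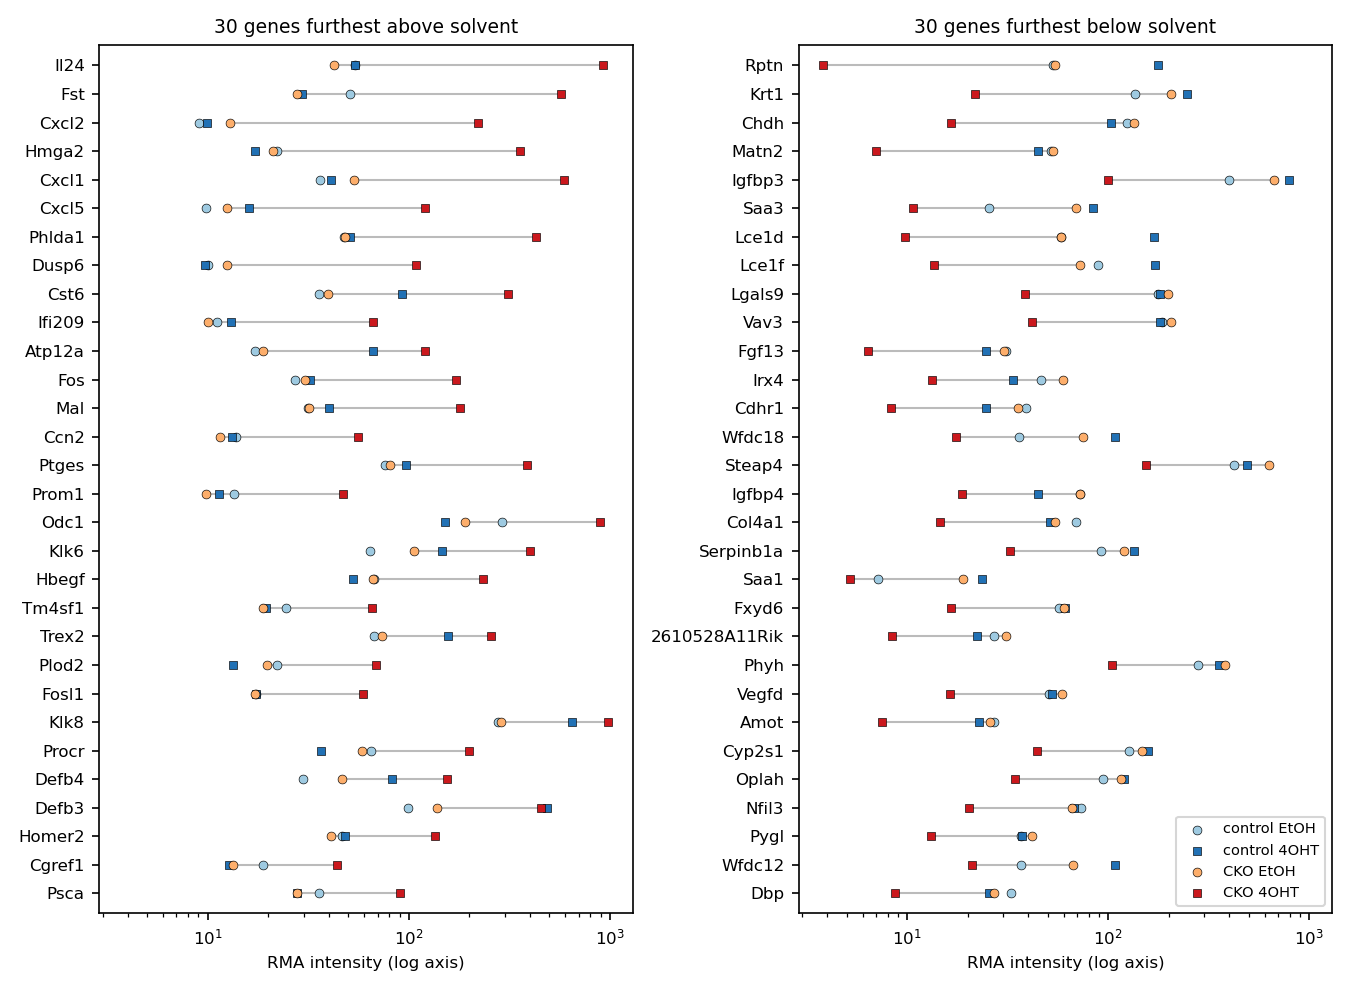
RMA intensity (log axis) on each of the 4 arrays for the 30 genes with the largest (left) and the 30 with the smallest (right) CKO difference; each symbol is 1 array, and the grey line joins CKO EtOH and CKO 4OHT. On the left the red square of CKO 4OHT lies apart from the other symbols for genes such as Il24, Fst and Cxcl2, whereas for Cst6, Atp12a, Klk6 and Defb3 control 4OHT (blue square) was higher than both EtOH arrays too; on the right, control 4OHT lies above both EtOH arrays for Rptn, Saa3, Lce1d and Wfdc18.

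Cxcl5, Cxcl1 and Cxcl2 follow each other on chromosome 5 in the order of measured genes (genes that were not measured can lie between), and the next are Epgn and Ereg, ligands of the EGF receptor. All 5 were higher in the CKO pair (in that order 3.27, 3.46, 4.098, 1.28 and 1.06), and none was in the control pair (0.71, 0.18, 0.13, 0.201 and 0.58). No other run of neighbours in the CKO pair had 5 genes higher. Cxcl5, Cxcl2 and Ereg passed the level filter through CKO 4OHT alone, so the length of the run depends in part on the array in which it is read. The 250 bases upstream of Cxcl1 and Cxcl2 are shown because the same 11-base NF-kB element, in capitals, stands near both start sites (RefSeq, GRCm38.p6, both on the plus strand, 5′ to 3′). It begins 71 bases before the start of Cxcl1 and 97 bases before that of Cxcl2, and it reads as a match on either strand.
Cxcl1, chr5:90890995-90891244: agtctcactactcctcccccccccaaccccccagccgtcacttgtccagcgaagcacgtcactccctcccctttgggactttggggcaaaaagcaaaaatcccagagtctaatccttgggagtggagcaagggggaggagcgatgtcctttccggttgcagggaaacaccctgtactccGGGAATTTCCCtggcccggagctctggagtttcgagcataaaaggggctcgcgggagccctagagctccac
Cxcl2, chr5:90903649-90903898: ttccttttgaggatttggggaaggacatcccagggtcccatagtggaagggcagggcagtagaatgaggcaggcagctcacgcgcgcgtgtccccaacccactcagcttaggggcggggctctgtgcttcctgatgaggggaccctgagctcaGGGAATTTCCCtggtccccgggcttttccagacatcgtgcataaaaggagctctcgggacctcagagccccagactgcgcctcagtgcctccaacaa

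Among 13 measured epithelial cytokines, 4 were higher and 1 lower in the CKO pair (median 0.29, against 0.01 over all measured genes), while 5 were higher and none lower in the control pair (median 0.86). With a 4-fold stricter level filter 6 of the 13 remained and the CKO median was -0.55. After Il24 came Lif, an IL-6 family cytokine, at 22.3, 24.9, 25.2 and 71.2 (1.498). Il1a, the alarmin interleukin-1 alpha, was at 12.7, 14.5, 13.2 and 36.9 (1.48). Tslp, a lymphopoietin of barrier epithelia, was at 28.3, 17.7, 19.9 and 47.7 (1.26). Lif, Il1a and Tslp had their highest level in CKO 4OHT. The members past 2-fold in the control pair were others, namely Il1rn, Il1f5, Il1f6, Il1f8 and Il1f9, all of the IL-1 family. Il1rn, the IL-1 receptor antagonist, had a control difference of 1.32 and a CKO difference of -0.77. Il33, a nuclear alarmin, was lower in the CKO pair (216, 393, 246 and 118, -1.06) and differed by 0.86 in the control pair. A second, dim Lif probe set differed by 0.18.

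Receptor chains for the IL-6 family, to which Lif belongs, were among the lower genes. Il6st, the signalling subunit gp130 shared by IL-6 family receptors, was at 299, 329, 346 and 123 (-1.495). Osmr, its oncostatin M partner, was at 122, 114, 111 and 48.0 (-1.21). Socs3, the feedback inhibitor of gp130 signalling, was at 101, 81.0, 82.4 and 40.3 (-1.03). With Il13ra1, an interleukin-13 receptor chain (-1.08), these were the 4 lower genes among 20 measured cytokine receptors and signal inhibitors. None of the 20 was higher and the list median was -0.19 (0.16 in the control pair). Further probe sets of Il6st (-0.46 and -0.73), Osmr (-0.59) and Socs3 (-0.85 and -0.41) had the same sign and smaller sizes.

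EGF receptor ligands were the list with the highest median of those with at least 4 measured members, 1.24 (0.15 in the control pair). All 4 measured ligands were higher in the CKO pair. Hbegf, heparin-binding EGF, was at 67.1, 52.6, 66.6 and 233 (3.50-fold). Epgn, epigen, was at 393, 452, 347 and 842 (2.42-fold). Tgfa, transforming growth factor alpha, was at 45.2, 48.2, 30.7 and 70.5 (2.30-fold), with CKO EtOH below both control arrays. Further Tgfa probe sets, under the level filter, differed by 0.36 and 0.08. Ereg, epiregulin, was at 9.67, 14.4, 12.0 and 25.02 (2.09-fold). CKO 4OHT was the highest array for each. The 3 ligands under the filter, Btc, Egf and Nrg4, reached at most 11.6. The receptors showed no such difference: none of 10 measured ErbB receptors and regulators passed 2-fold (median -0.02), Egfr differing by -0.26 and Errfi1, a feedback inhibitor of the receptor, by 0.81 (217, 249, 209 and 368).

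Genes that ERK signalling is known to induce differed in both directions. In the list of ERK feedback phosphatases and inhibitors, 14 of 17 measured genes were above 0 in the CKO pair and 3 were higher by 2-fold, with a median of 0.66 (-0.04 in the control pair). Phlda1, a pleckstrin homology protein, was at 47.5, 51.3, 48.2 and 432 (8.96-fold). Dusp6, the phosphatase that switches off ERK, was at 10.03, 9.75, 12.5 and 108 (8.68-fold). Spry1, a Sprouty inhibitor of receptor tyrosine kinases, was at 58.9, 66.7, 55.4 and 134 (2.42-fold). CKO 4OHT was the highest array for each, and Dusp6 lay near the floor on the others. Etv4, an ETS factor of the PEA3 group, was at 23.4, 26.6, 25.3 and 63.2 (1.32), and Ets2 was lower (-1.14).

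Among 13 AP-1 and ATF factors, Fos was at 27.1, 32.3, 30.4 and 172 (5.66-fold). Fosl1, the late AP-1 subunit Fra-1, was at 17.5, 17.3, 17.1 and 59.4 (3.47-fold). No other member passed 2-fold: Junb differed by 0.904, Atf3 by -0.029 and Jun by -0.76. Of 21 other immediate early genes, Ier3, an early response gene, was at 618, 798, 644 and 1551 (1.27). Plk2, a polo-like kinase, was at 357, 329, 247 and 497 (1.01), and the list median was 0.55 (0.15 in the control pair). Egr1, an immediate early gene as well, went the other way at -0.91 without passing 2-fold.

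The AP-1 element was searched in promoters, taken as 300 bases from 250 before to 50 after each start site in the RefSeq table (GRCm38.p6), on both strands, as TGACTCA or TGAGTCA, which are each other's reverse complement. Of the 133 higher genes 101 had a promoter in the table, and 17 of them (16.8%) held the element. It was in 8.04% of 112 lower genes, in 4.92% of 6096 measured genes and in 5.20% of all 32851 promoters of that length. Among genes higher in the control pair it was in 14 of 76 (18.4%). A gene counts where any of its promoters holds the element, whereas the last share is per promoter. Of the higher genes with the element, Ifi209, Prom1, Cgref1, Upp1, Il1a and Mmp3 passed the level filter through CKO 4OHT alone. The share of the higher genes thus depends in part on that array, and the shares of other elements below have the same limit. Sites of 8 genes are shown with the element in capitals, each 5′ to 3′ on the gene's strand, as examples chosen after the values were seen.
Ifi209, chr1:173630609-173630630, plus strand: cctggTGACTCActtgtgagtt
Prom1, chr5:44101808-44101834, minus strand: cccgtggtccTGACTCAggcaccctta
Procr, chr2:155751053-155751079, plus strand: cccaccccccTGACTCAgcggcgacct
Lif, chr11:4257330-4257356, plus strand: cagtcagctgTGACTCAggccatagtg
Il1a, chr2:129309968-129309994, minus strand: cagagaagccTGACTCAgacttaagtc
Mmp3, chr9:7445766-7445792, plus strand: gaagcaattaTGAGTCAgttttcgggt
Cldn4, chr5:134947076-134947102, minus strand: tactggcgggTGACTCAggggcccagg
Sdcbp2, chr2:151572569-151572595, plus strand: tagtccacggTGAGTCAgctgaacaag

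Of these, Ifi209 was at 11.1, 13.02, 10.1 and 66.2 (6.57-fold). Prom1, the stem cell surface protein prominin-1, was at 13.6, 11.4, 9.78 and 47.0 (4.81-fold). Procr, the protein C receptor, was at 64.7, 36.4, 58.7 and 199 (3.39-fold). Cldn4 and Sdcbp2 were higher in both pairs, and the other 6 reached 2-fold in the CKO pair and not in the control pair. Other elements gave shares of higher, lower and all measured genes as follows. The NF-kB element was found in 19.8%, 13.4% and 12.3%, and the TEAD element (GGAATG) in 22.8%, 14.3% and 14.3%. The CRE (tgacgtca) gave 4.95%, 1.79% and 3.64%, the serum response element CArG 0.99%, 5.36% and 1.57%, and the Blimp-1 core (agtgaaag) 0%, 2.68% and 1.07%. For that core the counts were 0 of 101 higher, 3 of 112 lower and 65 of 6096 measured genes. They are too few to be read as a difference between the sets. Over all promoters of the table the NF-kB, TEAD, CRE, CArG and Blimp-1 core shares were 8.46%, 14.7%, 1.79%, 1.63% and 1.32%. In the list of NF-kB subunits, inhibitors and targets, 7 of 17 measured genes were above 0 in the CKO pair. In that list 1 gene was higher and 0 lower, with a median of -0.18 (0.14 in the control pair).

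Growth-related genes were among the higher ones as well. Hmga2, an architectural chromatin protein of embryonic and dividing cells, was at 22.3, 17.2, 21.1 and 356 (16.9-fold), and its 2 other probe sets gave differences of 3.27 and 3.48. The other 5 measured members of the list of high mobility group genes and the let-7 axis stayed under 2-fold. Odc1, the rate-limiting enzyme of polyamine synthesis, was at 289.8, 151, 191 and 897 (4.69-fold), with 2.42 and 2.13 from its further probe sets. Smox, spermine oxidase, was at 66.7, 84.4, 58.8 and 118. Odc1 differed by -0.94 in the control pair, so its pairs had opposite signs. Ccnd1, cyclin D1, was at 249.98, 154, 215 and 521 (1.28, and 1.36 and 1.19 by further probe sets), also with a negative control difference (-0.695). Cdkn2d, a CDK4 inhibitor, was lower at 44.3, 45.7, 40.9 and 15.8 (-1.38).

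Cell cycle lists were split. Of 32 measured genes of DNA replication and nucleotide synthesis, 24 were above 0 in the CKO pair and 0 in the control pair, with medians of 0.16 and -0.63. Tk1, thymidine kinase, was the 1 higher member (74.2, 37.4, 40.7 and 88.9). Cad, the first enzyme of pyrimidine synthesis and not in the list, was higher too at 62.8, 39.6, 40.1 and 96.8 (1.27). Of 37 mitosis and spindle genes, 3 were above 0 in the CKO pair (median -0.37) and 4 in the control pair (median -0.26), and Mki67, a marker of cycling cells, was the 1 lower member (281, 229.6, 254 and 126). Thus the replication list had medians of opposite sign in the pairs and the mitosis list did not. Of 31 genes of the Myc network and ribosome biogenesis none passed 2-fold, 25 were above 0 and the median was 0.30 (-0.17 in the control pair), with Npm1 at 0.16, Ncl at 0.12 and Myc, a classic Blimp-1 target in B cells, at 0.96. Of 24 p53 targets, Mdm2 (138, 127, 151 and 303) and Plk2 were higher, and the median was 0.31.

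Other higher genes encode proteins of the cell surface and matrix. Ccn2, a matricellular growth factor and the 1 gene past 2-fold of 12 measured YAP and TEAD targets, was at 13.8, 13.3, 11.5 and 55.7 (4.86-fold). Itga3, the integrin that binds laminin-332, was at 233, 155, 162 and 399 (1.299). It led a list of 12 integrin and hemidesmosome genes of which 10 were above 0 in the CKO pair and 2 in the control pair, with medians of 0.26 and -0.24. Pdpn, the mucin podoplanin of wound-edge keratinocytes, was at 82.9, 52.2, 67.1 and 183. Tm4sf1, a tetraspanin-like protein, was at 24.7, 19.6, 18.8 and 65.8. Epha2, an Eph receptor, was at 49.9, 49.8, 45.3 and 129. CKO 4OHT was the highest array for all 4. Ptges, which makes prostaglandin E2, was at 76.5, 97.4, 80.6 and 388 (4.82-fold). Mal, a protein of apical membrane sorting, was at 31.7, 40.2, 31.9 and 180.4 (5.65-fold). Plod2, a collagen lysyl hydroxylase, was at 22.1, 13.3, 19.7 and 68.5. Tfrc, the transferrin receptor, was at 112, 69.7, 73.7 and 226. Krt18, a keratin of simple epithelia, was at 13.5, 10.9, 10.7 and 30.2. Its usual partner Krt8 went the other way (73.4, 77.8, 90.2 and 43.8), although Krt1, Krt8 and Krt18 follow each other on chromosome 15 in the order of measured genes.

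A second kind of higher gene was higher with the drug in both pairs. The 24 such genes include proteases, defensins and barrier enzymes of upper epidermal layers. Cst6, the cysteine protease inhibitor cystatin M/E, was at 35.9, 92.8, 39.5 and 312, with differences of 2.98 in the CKO pair and 1.37 in the control pair. Atp12a, a proton pump, was at 17.1, 66.2, 18.9 and 120.0 (2.67 and 1.95). Tgm1, the transglutaminase that crosslinks the cornified envelope, was at 63.3, 179.9, 67.2 and 198 (1.56 and 1.51). For Cst6 and Atp12a the CKO 4OHT level exceeded that of control 4OHT; for Tgm1 both 4OHT arrays were nearly level. The beta-defensin Defb3 was at 99.6, 487, 138 and 455 (1.72 and 2.29). Defb4 was at 29.9, 82.8, 46.5 and 154.

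Kallikreins, the serine proteases that shed the outermost cells, were a group of this kind. All 10 measured kallikreins and inhibitors were above 0 in both pairs, 4 were higher in each, and the medians were 0.82 and 0.88. Klk6 was at 64.5, 147, 106 and 399.9. Klk8 was at 279, 651, 289 and 983. Klk7 was at 648, 1343, 792 and 1592; these 3 were past 2-fold in both pairs. Klk10 was higher in the CKO pair (1.13) and just under 2-fold in the control pair (0.91), with Klk11 the reverse (0.58 and 1.03). Klk10, Klk8, Klk7 and Klk6 form a run of adjacent measured genes on chromosome 7. Barrier lipid genes had similar counts in the pairs, with 3 of 19 higher in the CKO pair and 4 in the control pair and medians of 0.38 and 0.45: Alox12b, a lipoxygenase of barrier ceramides, differed by 1.64 and 1.33, Degs2 by 1.23 and 1.15, and Ugcg by 1.197 and 1.15. In ion transport, 5 of 24 genes were higher and 1 lower in the CKO pair (median 0.08), and 2 were higher and 1 lower in the control pair (median 0.27). Atp12a and the chloride channel protein Clic3 (1.43 and 1.35) were higher in both. The sodium channel subunits Scnn1g (1.298 and 0.98) and Scnn1b (1.09 and 0.27), neighbours in the order of measured genes, and the potassium channel Kcnn4 (1.18 and 0.26) were past 2-fold in the CKO pair alone. The lower gene was Fxyd6, a regulator of the sodium pump (57.2, 60.8, 60.3 and 16.4).

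The largest differences among the lower genes were those of Rptn, a cornified envelope protein, and Krt1. Rptn, repetin, was at 53.4, 178, 54.5 and 3.82 (14.3-fold), its CKO 4OHT value being close to the lowest of the table (2.66). Krt1, the type II keratin of the spinous layer, was at 136, 246, 205 and 21.8 (9.39-fold). Both stood higher in control 4OHT than in either EtOH array, so inducer and solvent differed in opposite directions with and without CreER. The Rptn value rests on 1 of 3 probe sets; the other 2 were between 5.61 and 7.49 on all arrays, near the floor. Krt10, the partner of Krt1, differed by -0.397, and in the list of 15 suprabasal keratins and scaffold proteins 2 were higher, 1 was lower and the median was 0.35 (0.86 in the control pair).

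The chromosomal neighbourhood of these genes shows how unevenly they differed. The epidermal differentiation complex on chromosome 3 holds the S100, loricrin, small proline-rich (Sprr), late cornified envelope (Lce) and fused S100 genes. Between S100a1 and S100a10, 30 genes were measured. In the control pair 29 of the 30 were above 0, 16 were higher and 0 lower (median 1.03). In the CKO pair 1 was higher, 10 were lower and 19 were neither (median -0.32).

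**Figure D3:**
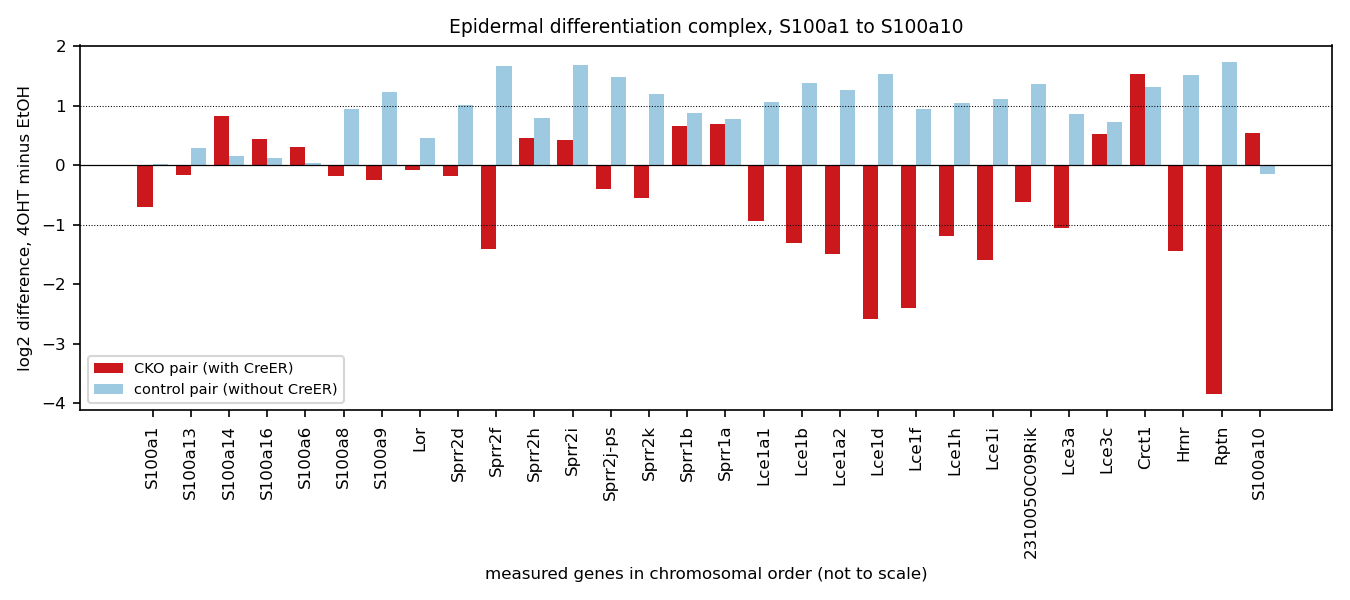
Log2 difference of 4OHT against EtOH for the 30 measured genes of the epidermal differentiation complex in chromosomal order (not to scale), with red bars for the CKO pair and light blue bars for the control pair, 1 array a side, and dotted lines at 2-fold. Blue bars stand above 0 for all but S100a10, whereas red bars are mixed on the left, point down through the Lce1 genes and at Hrnr and Rptn, and point up at Crct1.

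The Lce genes, which encode small late envelope proteins, made up most of the lower part. Of 10 measured genes in the list, 7 were lower and 1, Crct1, was higher in the CKO pair (median -1.24), whereas 7 were higher in the control pair (median 1.09). Lce1d was at 58.2, 168, 58.2 and 9.74 (5.98-fold). Lce1f was at 88.6, 172, 72.0 and 13.7 (5.26-fold). Lce1h was at 246, 506, 232 and 102 (2.27-fold). In these Lce genes the array order was the same, with control 4OHT on top and CKO 4OHT at the bottom. Lce1b, Lce1a2, Lce1d, Lce1f, Lce1h and Lce1i form an unbroken run of 6 lower measured neighbours, the longest in the CKO pair. Crct1, beyond the Lce3 genes, was at 642, 1593, 729.9 and 2127 and was higher in both pairs (1.54 and 1.31), while the next measured neighbours Hrnr, hornerin (31.4, 89.6, 28.2 and 10.5), and Rptn were lower. Of 8 Sprr genes, Sprr2f was lower (14.4, 45.9, 20.4 and 7.70), Sprr1a differed by 0.697, and the median was 0.13, against 5 higher and a median of 1.11 in the control pair. Near-identical Lce and Sprr genes can share probes, so single members are less certain than the group.

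Acute phase and antimicrobial genes also had medians of opposite sign in the pairs. Of 14 measured, 7 were lower and 2 higher in the CKO pair (median -1.02), and 10 were higher in the control pair (median 1.39). Saa3, serum amyloid A3, was at 25.6, 84.1, 69.5 and 10.7. Saa1 was at 7.18, 23.7, 19.1 and 5.20. Lcn2, the siderophore-binding lipocalin-2, was at 355, 875, 594 and 279.8. For Saa3, Saa1 and Lcn2, CKO EtOH already stood above control EtOH. Orm1, an acute phase glycoprotein, was at 95.9, 214, 134 and 62.9. Lpo, lactoperoxidase, was at 56.4, 116, 59.3 and 24.4. Rnase2b, an eosinophil-type ribonuclease, was at 19.4, 114, 14.6 and 6.09; its CKO values lie near the floor, so the control difference (2.56) is the firmer of the 2. The whey acidic protein genes Wfdc12 and Wfdc18 were at 36.7, 108, 67.0 and 21.1 and at 36.2, 109, 74.8 and 17.6. The defensins departed from the group, Defb3 and Defb4 being the 2 higher members, and Slpi, a protease inhibitor of secretions, differed by 0.92. Psmb8, an immunoproteasome subunit (44.5, 56.4, 46.6 and 15.7), and Irf1, an interferon regulatory factor (85.5, 130.1, 123 and 56.1), were lower among 17 interferon and antigen presentation genes, whose median was -0.19 (0.34 in the control pair). Ifi209, described above, was the 1 higher gene of that list.

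Some growth factor receptors and binding proteins were lower. Fgfr2, whose epithelial form reads fibroblast signals, was at 306, 279.5, 415 and 144 (-1.53). Fgfr3 was at 61.4, 50.8, 57.1 and 21.5 (-1.41). Fgf13, an intracellular FGF family member, was at 31.1, 24.7, 30.2 and 6.402 (-2.24). Control differences were -0.13, -0.27 and -0.33. Second probe sets gave -1.01 for Fgfr2 and -0.33 for Fgfr3. The list of FGFs and receptors had the lowest median of the lists with at least 4 measured genes, -1.47 over 4, but 8 more of its genes on the array were under the filter, and with them the median is 0.018. Of 10 measured genes of the insulin-like growth factor pathway, 1 was higher and 2 were lower (median -0.06, and 0.01 in the control pair). Igfbp3, the main carrier of insulin-like growth factors, was at 399, 797, 672 and 99.9 (6.72-fold). Igfbp4 was at 72.2, 44.7, 72.1 and 18.7 (3.85-fold). The other measured Igfbp4 probe sets ranged from -2.05 to 0.01. Igfbp7 was higher (235, 233, 225 and 606), though 1 of its 2 further probe sets was at -0.05. Vegfd, a lymphatic growth factor, was at 50.6, 52.7, 58.6 and 16.3, and the Wnt receptor Fzd6 and the Wnt acyltransferase Porcn differed by -1.38 and -1.33. Tgfbi, a TGF-beta induced matrix protein, was at 1118, 957, 1043 and 352 (-1.57), the brightest of the lower genes in CKO EtOH.

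Matrix genes were mostly below 0 too. Of 20 measured collagen and basement membrane genes, 2 were above 0 in the CKO pair, 3 were lower and the median was -0.46 (-0.04 in the control pair). Matn2, matrilin-2 of the basement membrane zone, was at 52.0, 45.0, 53.03 and 6.97 (7.61-fold). Col4a1, a type IV collagen chain, was at 69.0, 51.6, 54.5 and 14.6 (3.73-fold). Col5a2 was at 29.98, 23.01, 23.3 and 10.7. A second Col4a1 probe set was flat (0.01), while Col4a2, the chain made together with Col4a1, differed by -0.67. Mmp2 (-1.302) and Adamts1 (-1.09), matrix proteases, were lower, and Mmp3 (9.33 and 20.7 in CKO EtOH and CKO 4OHT) and Timp2 (1.09, with 4 further measured probe sets between 0.17 and 0.72) were higher.

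Intracellular signalling and surface proteins among the 30 lowest genes included Lgals9, the lectin galectin-9, at 176, 181, 198 and 38.4 (5.16-fold). Vav3, a guanine nucleotide exchange factor, was at 184, 180.1, 205 and 41.7 (4.91-fold). Irx4, an Iroquois transcription factor, was at 46.4, 33.8, 59.8 and 13.3 (4.49-fold). For Lgals9 and Vav3 the other 3 arrays differed little. The 2 other Vav3 probe sets gave -2.42 and -2.11. Serpinb1a, an inhibitor of neutrophil proteases, was at 91.9, 134, 119.8 and 32.3. Cdhr1 was at 39.1, 24.6, 35.5 and 8.32. Amot, the tight junction protein angiomotin, was at 27.0, 22.8, 25.9 and 7.53. Steap4, a metalloreductase, was at 421, 491, 627 and 154. Outside the 30 lowest, Ctsc, cathepsin C, was at 243, 248, 258 and 96.1. Notch and epidermal regulators gave single genes: Lfng, a glycosyltransferase of Notch, was at 18.9, 20.7, 29.5 and 10.8. Gata3, an epidermal transcription factor, was at 92.5, 78.8, 82.1 and 39.1, whereas Hopx, a differentiation-linked homeobox protein, was higher at 1336, 2323, 1676 and 3714.

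Genes of metabolism stood on both sides. Of 16 genes of choline, one-carbon and amino acid catabolism, 2 were lower and none higher (median -0.06). Chdh, choline dehydrogenase of mitochondria, was at 124, 103, 134 and 16.5 (8.12-fold). Cbs was lower too, at 55.6, 62.9, 61.3 and 29.5. Outside the lists, Phyh, which starts the breakdown of phytanic acid, was at 281, 357, 379 and 104 (3.64-fold). Of 12 P450, retinoid and steroid genes, 4 were lower and none higher (median -0.25): Cyp2s1 was at 127, 159, 148 and 44.2. Cyp4b1 was at 46.8, 65.5, 62.8 and 21.3. Cyp27a1 was at 105, 88.1, 122 and 49.5. Cyp1b1 was at 30.7, 48.8, 33.1 and 12.4, with 0.02 and 0.24 from its 2 dim probe sets. Detoxifying enzymes split, with 5 of 32 glutathione, aldehyde and oxidative stress genes higher and 5 lower (median -0.09). The lower ones were the glutathione transferases Mgst1 (466, 506, 579 and 197), Gsta3 (-1.09), Gstm1 (-1.05) and Gstm2 (-1.05) and the carbonyl reductase Cbr2 (-1.28). The higher ones were Aldh1a3, which makes retinoic acid (29.9, 48.6, 26.0 and 82.5), Akr1c18, a steroid dehydrogenase (1.66), Hmox1, heme oxygenase (1.54), Gsta4 (1.32) and Gsr, glutathione reductase (1.07). Slc2a1, the glucose transporter GLUT1, was at 570.2, 422, 566 and 238, and with Aldoc (-1.19) and Bnip3 (-1.12) it was lower among 29 glycolysis and hypoxia genes, none of which was higher (median -0.26). The clock output genes Nfil3 (73.1, 67.5, 65.7 and 20.3) and Dbp (32.7, 25.6, 26.9 and 8.73) were lower, and 1 of 13 circadian genes was above 0 (median -0.33). Respiratory chain genes were flat: none of 38 passed 2-fold and the median was -0.08, with Cox5b at -0.22 and Cox6a1 at -0.18.

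**Figure D4:**
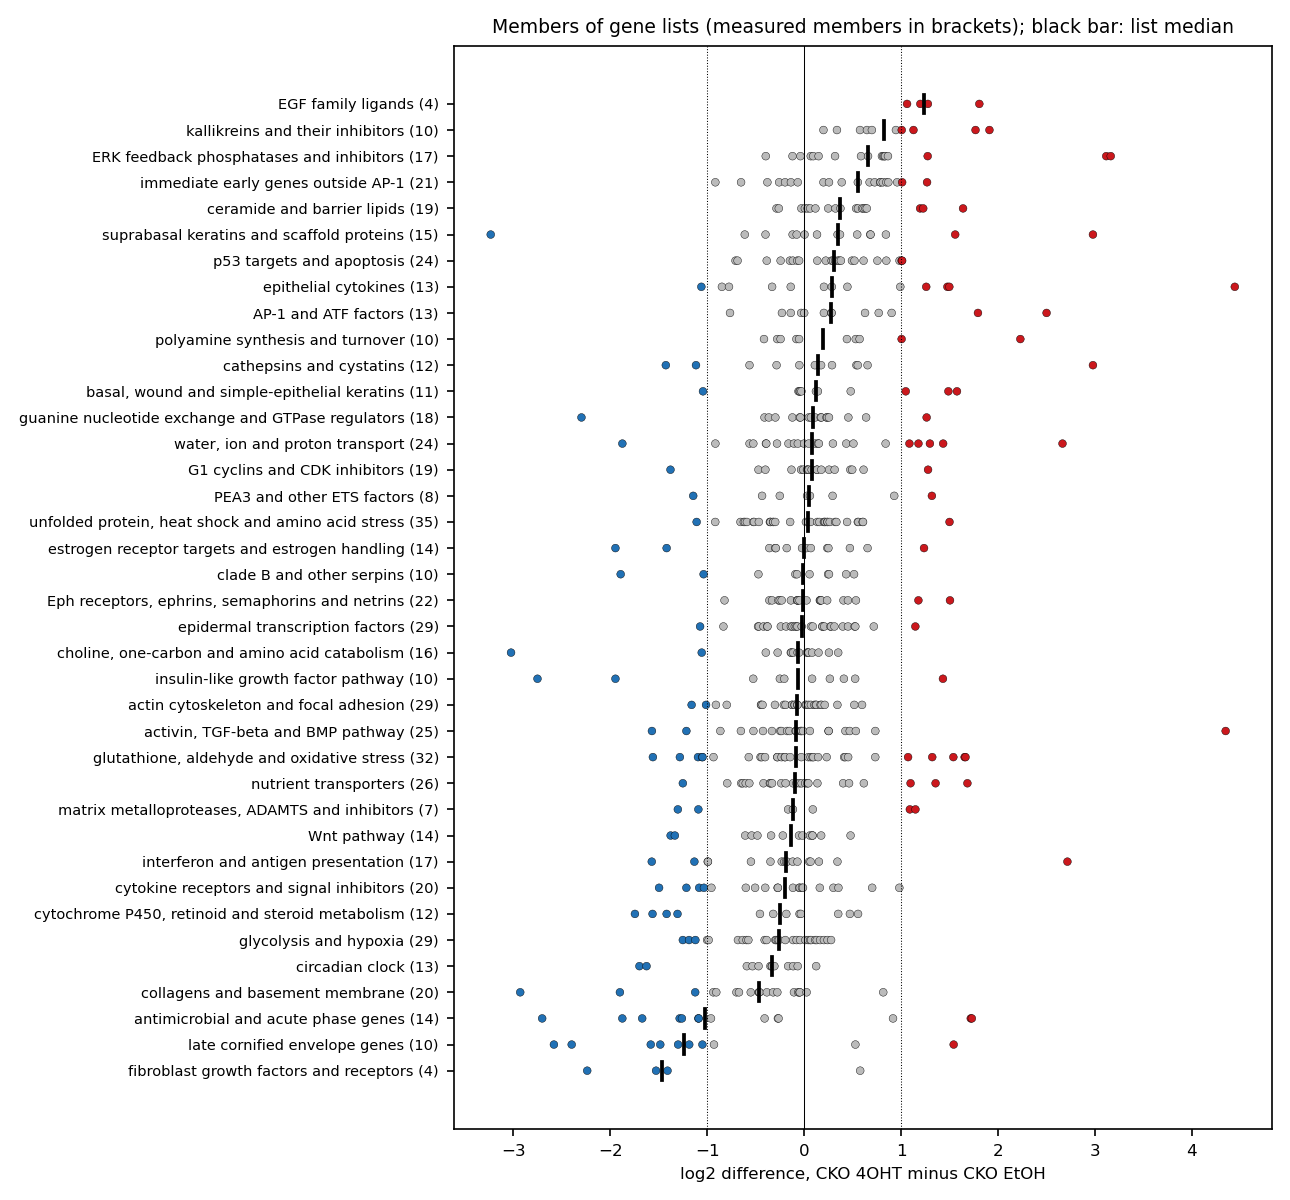
Log2 difference of CKO 4OHT against CKO EtOH for the measured members (points) of the lists with at least 4 measured genes and at least 2 genes past 2-fold, with the number of measured genes in brackets, a black bar at each list's median and dotted lines at 2-fold; red points are higher and blue points lower. Lists run from EGF ligands (median 1.24) at the top to fibroblast growth factors and receptors (median -1.47) at the bottom, and most medians lie within 0.5 of 0.

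In all, 59 lists had at least 4 measured genes. Their medians were at or above 0.5 in 4 lists (EGF ligands, kallikreins, ERK feedback and immediate early genes) and at or below -0.5 in 3 (FGFs, Lce genes, and acute phase and antimicrobial genes). Without the level filter the FGF median and the acute phase and antimicrobial median lay nearer 0. The 4 lists without any member past 2-fold were the ErbB receptors, S100 proteins (S100a9 at -0.24, S100a10 at 0.54), the Myc network and the respiratory chain. Lists held 72 of the 133 higher and 73 of the 139 lower genes. The brightest transcripts differed little, with Hspb1, a small heat shock protein, at 6982, 7167, 6888 and 6982. Krt6a, a wound keratin, was at 4637, 4935, 4883 and 5316; Rpl37a, Eef1a1 and Anxa2 differed by 0.082, -0.11 and -0.15.

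In order along the chromosomes, 51 of the genes past 2-fold stood in 20 runs of adjacent measured genes, 14 of them in 1 direction and 6 mixed. Of all measured genes, 1.78% were higher and 1.86% lower, and 7458 had 1 place in the order. How many runs such shares would give by position alone was not worked out, so these counts are a description. Related neighbours may also share probes, and the probe set of Gstm1 may cross-hybridise. Beside the runs on chromosomes 3, 5 and 7 described above, Saa3 and Saa1, Gstm2 and Gstm1, and Fgf21 and Dbp were lower together, and Cldn4 and Cldn3, tight junction claudins (1.16 and 1.08), were higher together. Prdm1 and Prep, a peptidase gene, formed a mixed run of 2, in which Prep was higher (162, 166, 129 and 283). No other measured gene next to either of them passed 2-fold.

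Many of these genes were dim on 1 side of the comparison. The higher genes had a median level of 45.3 in CKO EtOH and 134 in CKO 4OHT, and 31 of them were below the table median in CKO EtOH. The lower genes had medians of 73.3 and 29.5, and 54 of them were below the table median in CKO 4OHT, 17 of them under 10. Median folds were 2.49 and 2.43. Spread did not depend much on level: over 4 equal sets of genes from dim to bright the SD of CKO differences was 0.44, 0.45, 0.44 and 0.42, and that of control differences 0.36, 0.36, 0.33 and 0.32. Of the 272 genes, 166 had 1 probe set. Where a further measured probe set existed (66 genes, 102 probe sets), 99 had the sign of the main one, 56 were also past 2-fold, and 3, of Igfbp7, Igfbp4 and Col4a1, had the other sign. Of 63 further probe sets under the filter (54 genes), 45 had the sign of the main one, 18 had the other sign and 4 were past 2-fold.

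**Figure D5:**
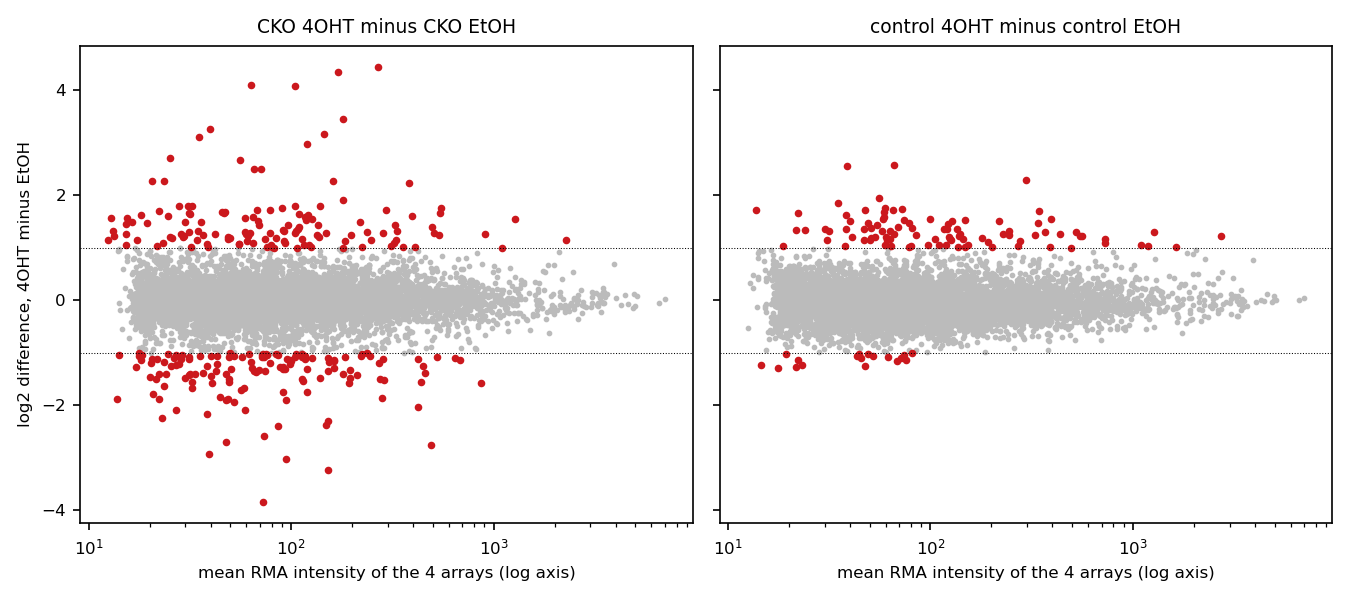
Log2 difference of 4OHT against EtOH (y axis) against the mean RMA intensity of the 4 arrays (x axis, log scale) for each measured gene in the CKO pair (left) and the control pair (right), with dotted lines at 2-fold and red points past them. Red points lie both above and below 0 in the CKO pair (133 and 139) and mostly above 0 in the control pair (95 and 18), over most of the intensity range.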

How the data were processed

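RNA of 4 cultures was hybridised to Affymetrix Mouse 430A arrays, 1 per group, and labelled with a 3′ in vitro transcription kit per the labels' protocols. The deposited values are intensities on a linear scale (22626 probe sets, 2.66 to 7167.2), made by the authors with RMA, per the submitters' processing notes. No source used here states its version. RMA equalises the arrays, so a shift of most transcripts would be lost, and it compresses dim differences. Array medians were between 19.95 and 20.22.

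Values were set to log2 with no pseudocount and no further normalization (Python 3.11.15, numpy 2.4.6, pandas 2.3.3, matplotlib 3.10.9). Of the probe sets, 20380 named 1 gene in the platform annotation, 691 several and 1555 were not listed. Each gene took the probe set with the highest mean log2 value (12393 genes), and 7461 had a value of at least 20.04 on some array. For 815 genes that probe set may cross-hybridise. Genes past 2-fold were counted, lists were described by counts and medians, and no test was possible. The count was also run on simulated data with planted differences above the cut and little noise. Its outcome was fixed by that setting, so it says nothing about error in the counts given here.

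The comparison, the 61 gene lists and the rules were chosen with earlier results of these data known. Named were Prdm1, the 30 largest and 30 smallest CKO differences, list members past 2-fold (or a list's 2 brightest), the 8 largest and 8 smallest differences between the pairs, the 6 brightest genes, and neighbours of named genes. Bcl6, Egfr, Junb, Atf3, Jun, Egr1, Il1rn, Myc, Krt10, Klk11, Sprr1a, Slpi, Col4a2 and Cad were chosen after their values were seen, as were genes outside the lists named only for their neighbours or promoters. Alternatives covered the level filter, a pseudocount, the choice of probe set, centring and the fold.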

Additional observations from a re-analysis of the deposited data

Results flagged for a closer look

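The difference of 4OHT against EtOH had opposite signs past 2-fold in the 2 pairs for 20 genes, all lower in the CKO pair and higher in the control pair. There was 1 array a side, so the difference between the pairs was not tested. The CKO minus control difference in log2 units was -5.57 for Rptn, -4.41 for Saa3, -4.11 for Lce1d, -3.82 for Rnase2b, -3.75 for Igfbp3, -3.67 for Wfdc18 and -3.60 for Saa1. It was -3.22 for Wfdc12, -3.08 for Sprr2f, -2.94 for Hrnr, -2.75 for Lce1a2, -2.74 for Prdm1, -2.70 for Lce1i and -2.68 for Lce1b. For Lcn2, Blnk, Lpo, Orm1, Lce1h and Aldoc it was -2.39, -2.35, -2.32, -2.25, -2.23 and -2.20. Of the 20, Rptn, Hrnr, Sprr2f and 5 Lce genes belong to the epidermal differentiation complex, Saa3, Saa1, Rnase2b, Wfdc12, Lcn2, Lpo and Orm1 to the acute phase and antimicrobial list, and Blnk encodes a B cell linker protein (50.2, 113, 62.1 and 27.4 on the 4 arrays, in the order used above). No gene was higher in the CKO pair and lower in the control pair by 2-fold.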

How the results depend on the processing

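No paired analysis was possible because each group has 1 array and the replicate number 1 is only a name. With a 4-fold stricter level filter, 81 genes were lower in the CKO pair and 6 in the control pair. With log2(value + 16) the counts were 80 higher and 60 lower in the CKO pair and 63 and 0 in the control pair. At 1.5-fold they were 423, 408, 295 and 292, and at 3-fold 42, 30, 15 and 0. Under the other settings run (no level filter, a filter from the compared arrays, the median of probe sets, no cross-hybridising probe sets, centred arrays) every count stayed within 1.5 times. The median of the fibroblast growth factor list was 0.018 without the level filter, which adds 8 dim genes, -0.87 with the median of probe sets and -0.47 with the stricter level filter, which leaves 2. The acute phase and antimicrobial median was -0.27 without the level filter. With the stricter level filter the epithelial cytokine median was -0.55 (6 genes) and that of cytokine receptors and signal inhibitors -0.78 (10 genes). No other list median moved by 1.5-fold under the settings run. Cyp1b1 (0.24) and Igfbp7 (-0.052) had the other sign with the median of probe sets, and Acta2 had it (0.23) without its cross-hybridising probe set; Rptn was -0.15 with the median of probe sets. Of the 163 named genes past 2-fold, 100 stayed past it with the pseudocount and 135 with the median of probe sets. Depth cannot be given for arrays; signal near the floor limits genes under about 10, and 1 array per group limits everything else.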

Other observations

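Caveolae, the small membrane pits built from caveolins and cavins, were looked at after their values were seen. Cav1, caveolin-1, was at 764, 610.4, 814 and 382 on the 4 arrays in the order used above, a CKO difference of -1.09. Cavin3, a cavin that binds protein kinase C delta, was at 118, 149, 139.9 and 48.4 (-1.53). Flot1, flotillin-1 of membrane rafts, was at 73.2, 81.7, 77.1 and 30.3 (-1.35). For these genes CKO 4OHT was the lowest array and the other arrays lay closer together. Cav2 and Cavin1, partners of Cav1 and Cavin3, differed by 0.10 and 0.03 in the CKO pair, and Flot2, the partner of Flot1, by 0.35, so the members of each kind were split.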
